A study of Ovis aries with 8 samples.

Results

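Integrins are the receptors that fix a cell to its matrix, and focal adhesion proteins are the layer that ties them to actin. The genes described here are the rows of the deposited table whose name starts with ITGA or ITGB, together with the rows named for any of 18 talin, kindlin, kinase, ILK-complex and actin-linking genes. They come to 41 of 15380 rows. The 2 prefixes gave 27 rows, of which 24 are integrin subunits and 3 (ITGB1BP1, ITGB1BP2 and ITGBL1) are other proteins with an integrin-derived name. Of the 18 listed genes 14 had a row, and PXN, TLN2, PARVG and TNS1 matched none. The rule uses names and no measured value. RNA was measured on 1-colour arrays in pulmonary artery endothelial cells, the lining cells of the vessel that carries blood to the lungs, grown from near-term sheep fetuses. There were 4 control cultures, labelled normothermic, and 4 cultures taken from growth-restricted fetuses (intrauterine growth restriction, IUGR), labelled hyperthermic, with 1 array per culture. The medium was DMEM containing 10% fetal bovine serum throughout, and controls were taken to passage 5 or 6 and IUGR cultures to passage 3 or 4. Growth restriction, hyperthermia and passage therefore cannot be told apart in these arrays, and adherent culture replaces the vessel's own matrix and blood flow. Each title carries a different animal identifier.

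An integrin is a pair of an alpha and a beta chain, and the pairing sets the ligand. In human and mouse cells alpha5 with beta1 binds fibronectin, alphaV with beta3, beta5 or beta8 binds RGD-bearing ligands such as vitronectin and latent TGF-beta, alpha3, alpha6 and alpha7 chains bind laminins, and alpha2 and alpha10 bind collagens. Inside the cell talin and kindlins bind the beta tail and switch the receptor on, focal adhesion kinase and its scaffold relay the signal, and the ILK, PINCH and parvin complex with vinculin, zyxin and tensins couples the receptor to actin. In endothelium these proteins are known for holding cells on the basement membrane and for sensing flow.

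Values are log2 intensities, each ± is the SD of a group's 4 arrays unless marked SE, and each difference is IUGR minus control. Values below 2.56, the 10th percentile of the table, were raised to it, so differences of dim genes are understated. The table holds no detection calls. The 95th percentile of 127 olfactory receptor rows, 3.44, was used as a background level. Array medians were 37.7 to 41.1 intensity units. The arrays differed in cell type markers, and all 8 were labelled endothelial. Of 19 measured endothelial markers, all lay above background on every array except IUGR replicates 2 and 4, with 12 each, and PECAM1, a junction protein of endothelium, was 3.31 and 3.63 on those arrays and 7.64 or more elsewhere. The summed endothelial marker intensity was 7400 to 15963 in control and 463 to 9199 in IUGR arrays. The 15 epithelial and mesothelial markers summed to 9782 and 14428 in IUGR replicates 2 and 4 and to 209 to 274 elsewhere. The 17 fibroblast markers summed to 2085 to 3227 in the first 3 control replicates. The sum was 19878 in control replicate 4 and 14455 to 30319 in IUGR. The part of these marker differences in the results below was not tested. Some values are given without an array or with the endothelial score, the mean deviation over its markers, as a covariate. The score was 0.68 to 1.80 in control and -0.40, -2.92, 0.84 and -3.10 in IUGR. Only IUGR replicate 3 overlapped with the control range. A fit with the score therefore cannot cleanly tell it from group, and it leaves the other marker lists unadjusted. In such bulk cultures fewer cells of a type and less RNA per cell cannot be told apart.

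No integrin or focal adhesion gene passed the test over all rows. The genes furthest from equal by p were PTK2, focal adhesion kinase, which was lower in IUGR cultures, and the kindlin gene FERMT3, also lower. ITGA7, a laminin-binding alpha chain, and ITGB1BP1, a protein that binds the beta1 tail, were higher. These 4 of 41 members (9.76%) had an unadjusted p under 0.05 in limma, against 15.3% of all rows. In the higher direction they were 2 of 41, where 7.8% of all rows were called, and in the lower direction 2 of 41, where 7.48% were. The groups did not overlap for 3 members (7.32%), all lower in IUGR, against 8.36% of all rows. By direction, 0 members were separate and higher, against 4.37% of all rows, and 3 (7.32%) were separate and lower, against 3.99%. After adjustment over all rows limma called 0 of 41 members and 0 of 15380 rows (0%), with 2350 rows at an unadjusted p under 0.05. The smallest adjusted p of a member was 0.149 in limma. Among the 31 members with a mean above background 4 (12.9%) had an unadjusted p under 0.05 in limma against 18.3% of such rows, and 3 (9.68%) had separate groups against 10% of them. The share of members that differed in either direction was thus close to or below that of the whole table. The share separate and lower was above it and rests on 3 genes.

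The members varied more between cultures than the typical row. Their median spread from lowest to highest array was 1.45, against 0.99 over all rows, and for the 31 members with a mean above background it was 1.90, against 1.14 over the 11769 such rows. The median difference between groups was 0.18 over members and 0.00 over all rows, and the median absolute difference 0.37 and 0.21. Group means were higher in IUGR for 24 members and lower for 17. Above background on every array were 25 members, on some arrays 13, and on no array 3, which were ITGA11, ITGAL and ITGB6.

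**Figure D1:**
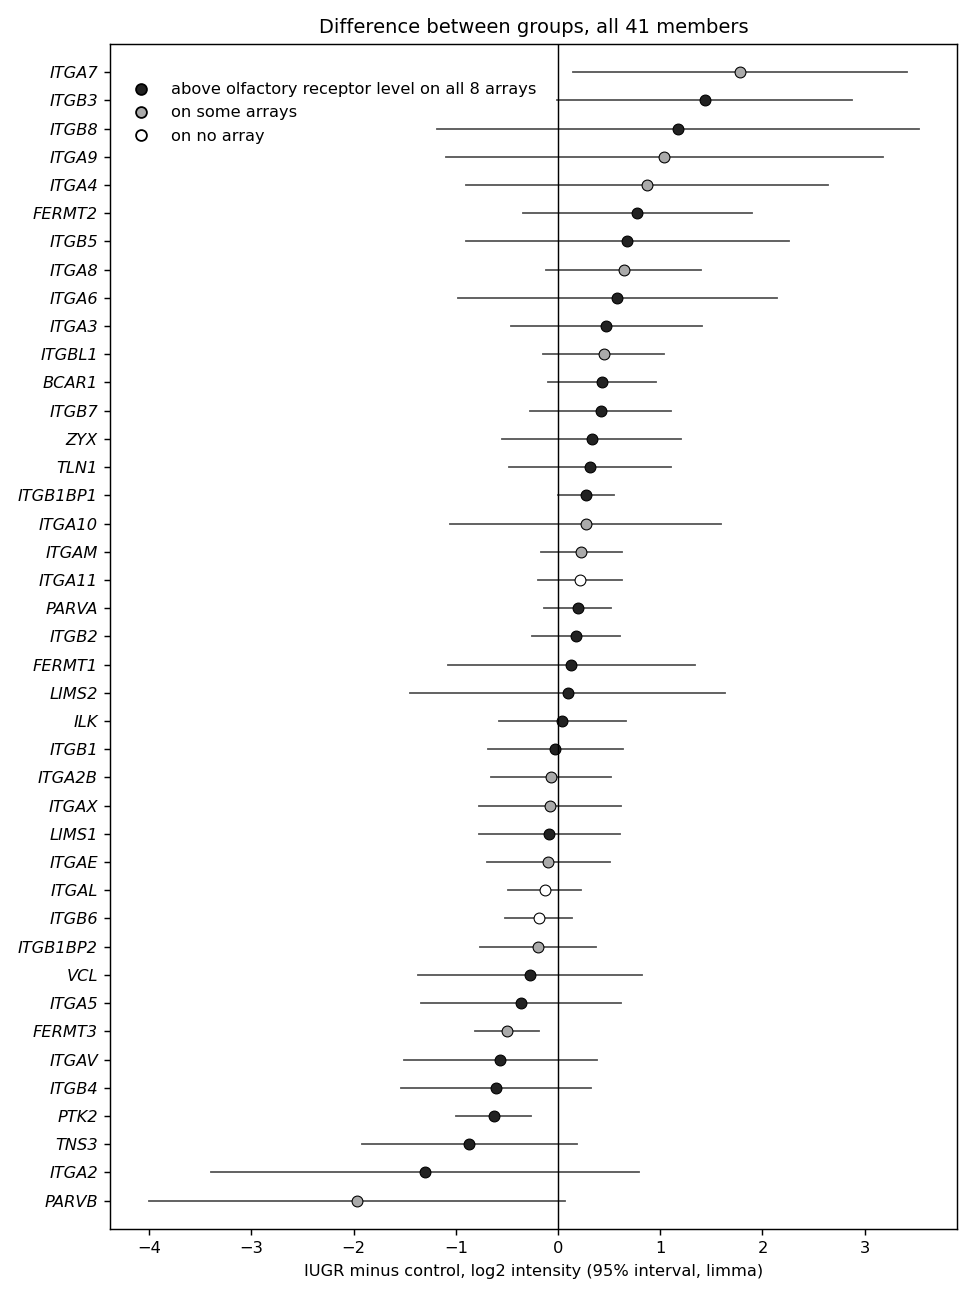
The horizontal axis is the difference IUGR minus control in log2 intensity for each of the 41 members, with its 95% interval from limma. The fill of each point shows on how many arrays the gene lay above the olfactory receptor level. Intervals of 4 members exclude 0, those of PTK2, FERMT3, ITGA7 and ITGB1BP1, and the widest belong to genes that varied within a group, such as ITGB8 and PARVB.

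The chains of the main fibronectin receptor overlapped between groups. ITGB1, the beta chain shared by most matrix-binding integrins, was 11.44, 11.40, 11.46 and 11.93 in control replicates 1 to 4 and 11.87, 11.69, 11.83 and 10.74 in IUGR replicates 1 to 4. Its difference was -0.03 ± 0.28 (SE), with a 95% interval of -0.69 to 0.63. IUGR replicate 4 was the lowest of the 8 arrays and the other 3 IUGR arrays lay above control replicates 1 to 3. ITGA5, the fibronectin-binding partner of beta1, was 9.28, 9.78, 9.33 and 9.33 in control and 9.23, 9.40, 9.79 and 7.85 in IUGR. Its difference was -0.36 ± 0.41 (SE), with a 95% interval of -1.35 to 0.62. Again IUGR replicate 4 lay apart below and the other arrays overlapped. FN1, fibronectin itself, was 12.05 to 12.48 in control, 12.20 to 12.29 in IUGR replicates 1 to 3 and 11.23 in IUGR replicate 4.

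The alphaV chain and its beta partners did not move together. ITGAV, the vitronectin receptor alpha chain, was 10.98, 11.06, 9.96 and 11.28 in control and 10.86, 9.79, 10.70 and 9.68 in IUGR, a difference of -0.56 ± 0.40 (SE). Its low arrays were control replicate 3 and IUGR replicates 2 and 4, so the groups overlapped. ITGB3, the beta3 chain of the vitronectin receptor, was 6.53, 4.73, 5.32 and 7.51 in control and 6.94, 7.54, 7.62 and 7.72 in IUGR. The difference of 1.43 ± 0.61 (SE) gave an unadjusted p of 0.0513 and an adjusted p of 0.33 in limma. Every IUGR array lay above control replicates 1 to 3, while control replicate 4 lay inside the IUGR range. ITGB5, the beta5 chain, was 5.40, 6.05, 3.92 and 6.42 in control and 7.40, 5.71, 6.00 and 5.39 in IUGR, with a difference of 0.68 ± 0.66 (SE). The groups overlapped and control replicate 3 was the lowest array. The ITGB5 difference was 0.17 without control replicate 3 and 0.25 without IUGR replicate 1.

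ITGB8, whose product is known for activating latent TGF-beta with alphaV, was chosen for description after its values were seen. It was 6.33, 5.19, 4.23 and 8.90 in control and 7.39, 7.55, 7.95 and 6.45 in IUGR. Control replicate 4, which also had a high fibroblast sum, was the highest of all 8 arrays, and the other controls lay below every IUGR array. With all arrays the ITGB8 difference was 1.17 ± 0.99 (SE), with an unadjusted p of 0.278 in limma. Without control replicate 4 it was 2.08 ± 0.59 (SE), with an unadjusted p of 0.0128 and an adjusted p of 0.148 in limma. Leaving out the highest control could only raise the difference, so the second value is no separate support. ITGA8, an RGD-binding alpha chain known from mesenchymal cells, was below background in all controls, at 2.63, 2.75, 2.89 and 2.96. In IUGR it was 3.93 and 4.08 in replicates 1 and 3 and below background, at 3.08 and 2.70, in replicates 2 and 4. The ITGA8 difference was 0.64 ± 0.32 (SE), with an unadjusted p of 0.0865 and an adjusted p of 0.402 in limma. ITGA2B, the platelet alphaIIb chain, stayed between 3.28 and 4.20 with a difference of -0.07 ± 0.25 (SE), and the 5 measured platelet markers summed to 49.1 to 57.1 intensity units on every array.

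The laminin-binding alpha chains all had higher means in IUGR, and their patterns over cultures differed. ITGA7, known best from muscle cells, was 2.89, 3.85, 3.74 and 5.29 in control and 6.99, 6.17, 4.54 and 5.20 in IUGR. Its difference was 1.78 ± 0.69 (SE), a fold of 3.44 on the linear scale with a 95% interval of 1.11 to 10.7, and limma gave an unadjusted p of 0.0369 and an adjusted p of 0.296. All IUGR arrays exceeded control replicates 1 to 3, and control replicate 4 overlapped with them. Control replicate 1 was below background. Passage did not overlap between groups, so its slope rests on control replicate 1 and IUGR replicate 2, the arrays whose passage differed within a group. The ITGA7 difference was 4.28 ± 1.99 (SE) with passage as a covariate and 1.25 ± 1.09 (SE) with the endothelial score. Its unadjusted p was under 0.05 in limma in 13 of 22 alternatives and not in 9, among them leaving out control replicate 1, 2 or 3 or IUGR replicate 1 or 2. The 16 smooth muscle markers summed to 22933 in control replicate 4, to 11037 to 14113 in IUGR replicates 1 to 3, and to 1681 to 3716 in the other 4 arrays. IUGR replicate 4, with a sum of 2564, nevertheless had more ITGA7 than IUGR replicate 3. A relation of ITGA7 to these markers was not tested.

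ITGA6, the laminin receptor chain found on endothelial and epithelial cells, was 8.19, 8.00, 8.44 and 6.63 in control and 6.72, 9.24, 8.70 and 8.92 in IUGR, a difference of 0.58 ± 0.66 (SE). The low arrays were control replicate 4 and IUGR replicate 1, and the high ones IUGR replicates 2, 4 and 3. ITGA3, another laminin receptor chain, was 7.49, 7.10, 6.71 and 7.44 in control and 7.15, 8.36, 6.88 and 8.24 in IUGR, a difference of 0.47 ± 0.39 (SE). IUGR replicates 2 and 4, the arrays with high epithelial and mesothelial markers, were the 2 highest for ITGA3, and the other IUGR arrays lay inside the control range. Without these 2 arrays the differences turned lower, to -0.17 for ITGA3 and -0.10 for ITGA6. ITGB4, the beta chain that pairs with alpha6, was 5.20, 6.46, 4.99 and 5.20 in control and 4.91, 4.15, 5.14 and 5.22 in IUGR. Its difference was -0.61 ± 0.39 (SE), the groups overlapped, and IUGR replicate 2, the array highest for ITGA6, was the lowest for ITGB4. The ITGB4 difference was -0.27 without control replicate 2 and -0.37 without IUGR replicate 2.

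Among collagen receptors ITGA2, the alpha2 chain, was 7.03, 6.95, 9.04 and 6.83 in control and 6.94, 6.52, 7.30 and 3.89 in IUGR. Most arrays lay close together, with control replicate 3 apart above and IUGR replicate 4 apart below. The difference was -1.30 ± 0.88 (SE), and -0.54 without IUGR replicate 4. ITGA10, another collagen-binding chain, was above background in 4 arrays, and ITGA11 in none. ITGA1 matched no row.

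The alpha4 and alpha9 chains, which bind fibronectin variants, VCAM1 and tenascin, had signal in few cultures and were described after their values were seen. ITGA4 was 5.54 and 4.61 in IUGR replicates 1 and 3, 3.77 in control replicate 4 and below background in the other 5 arrays. ITGA9 was 4.99 and 6.37 in IUGR replicates 1 and 3, 3.83 in control replicate 3 and below background elsewhere. IUGR replicates 1 and 3, the IUGR cultures with all 19 endothelial markers above background, were also the arrays where ITGA8 was above background. Their endothelial marker sums were 3775, below every control, and 9199. The differences over all 8 arrays were 0.87 ± 0.74 (SE) for ITGA4 and 1.04 ± 0.90 (SE) for ITGA9. Their unadjusted p in limma was 0.282 and 0.287. With IUGR replicates 2 and 4 left out the differences were 2.10 ± 0.47 (SE) and 2.56 ± 0.53 (SE), with adjusted p of 0.261 and 0.25 in limma. Both genes were below background in the arrays left out, so a larger difference was bound to follow and is no separate support.

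Integrin chains of leukocytes were dim. ITGAL was below background on every array, ITGAM and ITGAX, the chains of complement receptors, were above it on 1 array each, and ITGAE on 2. ITGB2, the shared leukocyte beta chain, was 3.499 to 4.32 in control and 3.90 to 4.23 in IUGR. ITGB7, the partner of alpha4 and alphaE in lymphocytes, was 3.71 to 4.21 in control and 5.12 in IUGR replicate 2, with the other IUGR arrays at 3.87 to 4.19. PTPRC, the pan-leukocyte CD45 gene, was at most 2.99 on every array, below background. The 12 measured leukocyte markers summed to 569 to 1511 in control and to 282 to 1249 in IUGR. LAPTM5, the brightest of them in every control, was 8.27 to 10.09 there and 7.02, 3.29, 9.95 and 3.49 in IUGR. It was lowest in the arrays with the fewest endothelial markers, so the sum is no plain measure of leukocyte RNA.

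**Figure D2:**
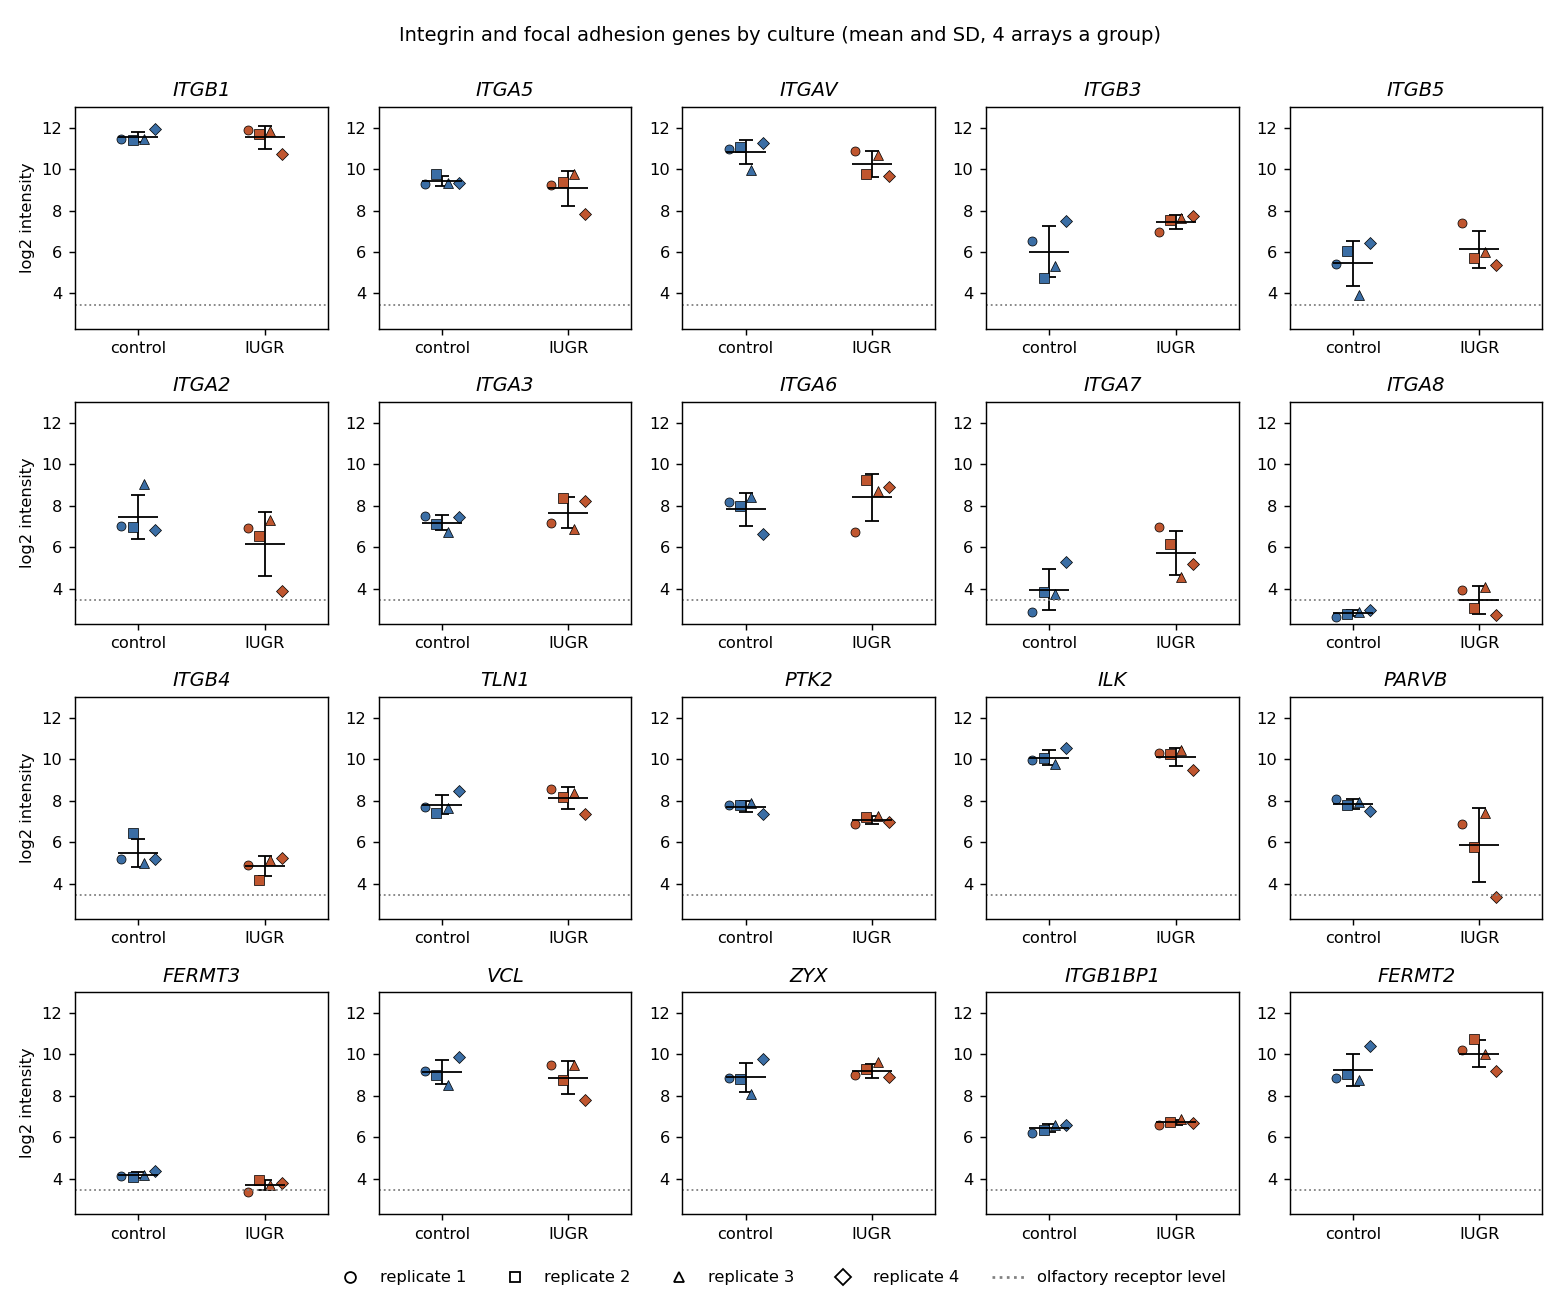
Each panel shows the log2 intensity of 1 gene in the 4 control and 4 IUGR arrays, with the marker shape giving the replicate, the bar the mean and SD, and the dotted line the olfactory receptor level of 3.44. Heights are not comparable between genes. PTK2, PARVB and FERMT3 are the panels where the groups are separate, and IUGR replicate 4 (diamond) is lowest for ITGB1, ITGA5, ITGAV, ITGA2, TLN1, ILK, PARVB and VCL.

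Of the proteins that switch integrins on, TLN1, talin-1, the linker between the beta tail and actin, was 7.68, 7.42, 7.67 and 8.48 in control and 8.58, 8.18, 8.38 and 7.35 in IUGR. The difference of 0.31 ± 0.33 (SE) was within the spread. Control replicate 4 stood with IUGR replicates 1 to 3, and IUGR replicate 4 with the other controls. FERMT2, kindlin-2, the kindlin of adherent cells, was named after its values were seen and ran the same way. It was 8.85, 9.05, 8.77 and 10.42 in control and 10.21, 10.73, 10.04 and 9.19 in IUGR, with a difference of 0.77 ± 0.47 (SE). Leaving out control replicate 4 and IUGR replicates 2 and 4 gave 1.24 ± 0.12 (SE) and an adjusted p of 0.0434 in limma. Leaving out control replicate 4 alone gave 1.16 ± 0.36 (SE) and an adjusted p of 0.181 in limma. Control replicate 4 was the highest control and IUGR replicate 4 the lowest IUGR array for FERMT2, so these values are no separate support.

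FERMT3, kindlin-3, known chiefly from blood cells and also reported in endothelium, was lower in every IUGR array. It was 4.14, 4.06, 4.19 and 4.39 in control and 3.36, 3.92, 3.69 and 3.80 in IUGR, a difference of -0.50 ± 0.13 (SE) with an unadjusted p of 0.0073 and an adjusted p of 0.169 in limma. The groups did not overlap, but all values were near the background level of 3.44 and IUGR replicate 1 was below it. With passage as a covariate the difference was -0.04 ± 0.39 (SE). As passage did not overlap between groups, that value cannot tell passage from group. FERMT1, the kindlin of epithelia, was 6.11 to 8.01 in control and 6.17 to 7.82 in IUGR, with a difference of 0.13 ± 0.51 (SE).

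PTK2 encodes focal adhesion kinase, the tyrosine kinase that is activated when integrins cluster. It was 7.79, 7.82, 7.90 and 7.34 in control replicates 1 to 4 and 6.86, 7.24, 7.26 and 6.96 in IUGR replicates 1 to 4. All 4 IUGR arrays lay below all 4 controls, though control replicate 4 was close above the nearest IUGR array. The group means were 7.71 ± 0.25 and 7.08 ± 0.20 (n = 4 each), a difference of -0.63 ± 0.15 (SE) with a 95% interval of -0.997 to -0.263, or 1.55-fold lower on the linear scale. Limma gave an unadjusted p of 0.00497, rank 509 of 15380 rows, and an adjusted p of 0.149. Control replicate 4 was the lowest control for PTK2, so leaving it out could only widen the difference. Without that array the difference was -0.75 ± 0.12 (SE) and passed, with an adjusted p of 0.0434 in limma. Without IUGR replicates 2 and 4 it was -0.65 ± 0.21 (SE), about as large, and with the endothelial score as a covariate -0.51 ± 0.24 (SE), with an adjusted p of 0.724 in limma. BCAR1, the p130Cas scaffold that this kinase and SRC phosphorylate, was 4.99 to 5.90 in control and 5.41 to 5.99 in IUGR, with a difference of 0.43 ± 0.22 (SE) and overlapping groups.

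No measured subunit of the ILK complex passed the test. ILK, the pseudokinase at its centre, was 9.98, 10.05, 9.76 and 10.56 in control and 10.31, 10.28, 10.44 and 9.49 in IUGR, a difference of 0.04 ± 0.26 (SE). PARVA, alpha-parvin, the widely expressed actin-binding subunit, was 8.83 to 9.17 and 8.87 to 9.43, a difference of 0.19 ± 0.14 (SE). The groups overlapped for both, and their 95% intervals, -0.58 to 0.66 and -0.13 to 0.52, include 0.

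PARVB, beta-parvin, was 8.06, 7.78, 7.95 and 7.52 in control and 6.89, 5.79, 7.43 and 3.35 in IUGR. Every IUGR array lay below every control, narrowly in IUGR replicate 3 and at background in IUGR replicate 4. As a percentage of the control mean intensity the 4 IUGR arrays stood at 51.5%, 24.1%, 75.1% and 4.45%, and the last is an upper bound because it lies at background. The group means were 7.83 ± 0.23 and 5.86 ± 1.81, a difference of -1.97 ± 0.86 (SE), with an unadjusted p of 0.0565 and an adjusted p of 0.341 in limma. The arrays with the lowest PARVB, IUGR replicates 4 and 2, were those with the lowest endothelial marker sums, 463 and 664. Without IUGR replicate 4 the PARVB difference was -1.13. Without both it was -0.67 ± 0.23 (SE), and with the endothelial score as a covariate it turned to 0.17 ± 0.77 (SE).

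The PINCH adaptors, which bind ILK, did not separate the groups. LIMS1 was 9.73 in control replicate 4, 8.65 to 8.76 in the other controls and 8.54 to 9.30 in IUGR. LIMS2 ranged over 6.89 to 8.13 in control and 6.18 to 8.80 in IUGR, with IUGR replicates 1 and 2 above every control and IUGR replicates 3 and 4 below. Their differences were -0.09 ± 0.29 (SE) and 0.09 ± 0.65 (SE).

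The actin linkers overlapped between groups. VCL, vinculin, which reinforces talin under tension, was 9.20, 9.01, 8.52 and 9.89 in control and 9.49, 8.78, 9.48 and 7.79 in IUGR, a difference of -0.27 ± 0.46 (SE). ZYX, zyxin, a LIM protein of mature adhesions, was 8.88, 8.82, 8.07 and 9.79 in control and 9.02, 9.32, 9.63 and 8.89 in IUGR, a difference of 0.33 ± 0.37 (SE). For both genes control replicate 4 was the highest array. TNS3, tensin-3, was 6.41 to 7.52 in control and 5.21 to 7.02 in IUGR, with a difference of -0.87 ± 0.44 (SE).

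ITGB1BP1, known as ICAP-1, a beta1-tail binding protein that restrains integrin activation and partners the vascular protein KRIT1, varied little between cultures, with a spread of 0.66 from lowest to highest array. It was 6.20, 6.34, 6.62 and 6.61 in control and 6.59, 6.72, 6.86 and 6.70 in IUGR. The difference of 0.27 ± 0.11 (SE), 1.21-fold, had an unadjusted p of 0.0484 and an adjusted p of 0.323 in limma. IUGR replicate 1 overlapped with control replicates 3 and 4. The ITGB1BP1 call at an unadjusted p under 0.05 held in 6 of 23 alternatives and was lost in 17, including quantile normalization and both filters on dim rows. ITGB1BP2, melusin of striated muscle, and ITGBL1, a secreted protein with integrin-like repeats, were above background on 1 and 3 arrays.

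Across arrays the adhesion genes leaned on particular cultures. Among the 25 members above background everywhere, IUGR replicate 4 was the lowest array for 9 (36%) and control replicate 3 for 8 (32%), against 12.8% and 10.6% of the 9948 such rows in the whole table. Control replicate 4 was the highest for 7 (28%), against 9.54% of those rows. The 7 were ITGB1, ITGAV, ITGB8, ILK, LIMS1, VCL and ZYX. IUGR replicate 3 was the lowest array for 0 of the 25. Median deviations of these 25 genes from their means were -0.10, -0.10, -0.30 and 0.12 in control replicates 1 to 4 and 0.20, 0.15, 0.29 and -0.30 in IUGR replicates 1 to 4. Control replicate 4 thus lay on the side of IUGR replicates 1 to 3, and IUGR replicate 4 on the side of the other controls. The fibroblast score, a mean deviation over its markers, was -1.98, -2.64, -2.41 and 1.30 in control and 2.40, 1.57, 1.45 and 0.32 in IUGR. The smooth muscle score was -0.83, -0.84, -1.42 and 1.56 in control and 1.20, 0.73, 0.64 and -1.03 in IUGR. The 8 arrays thus fall on the same sides of 0 for the smooth muscle score as for the member deviation, a pattern picked out after the values were seen, and its part in the members' values was not tested. These counts and scores are descriptions, and genes are not independent replicates.

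**Figure D3:**
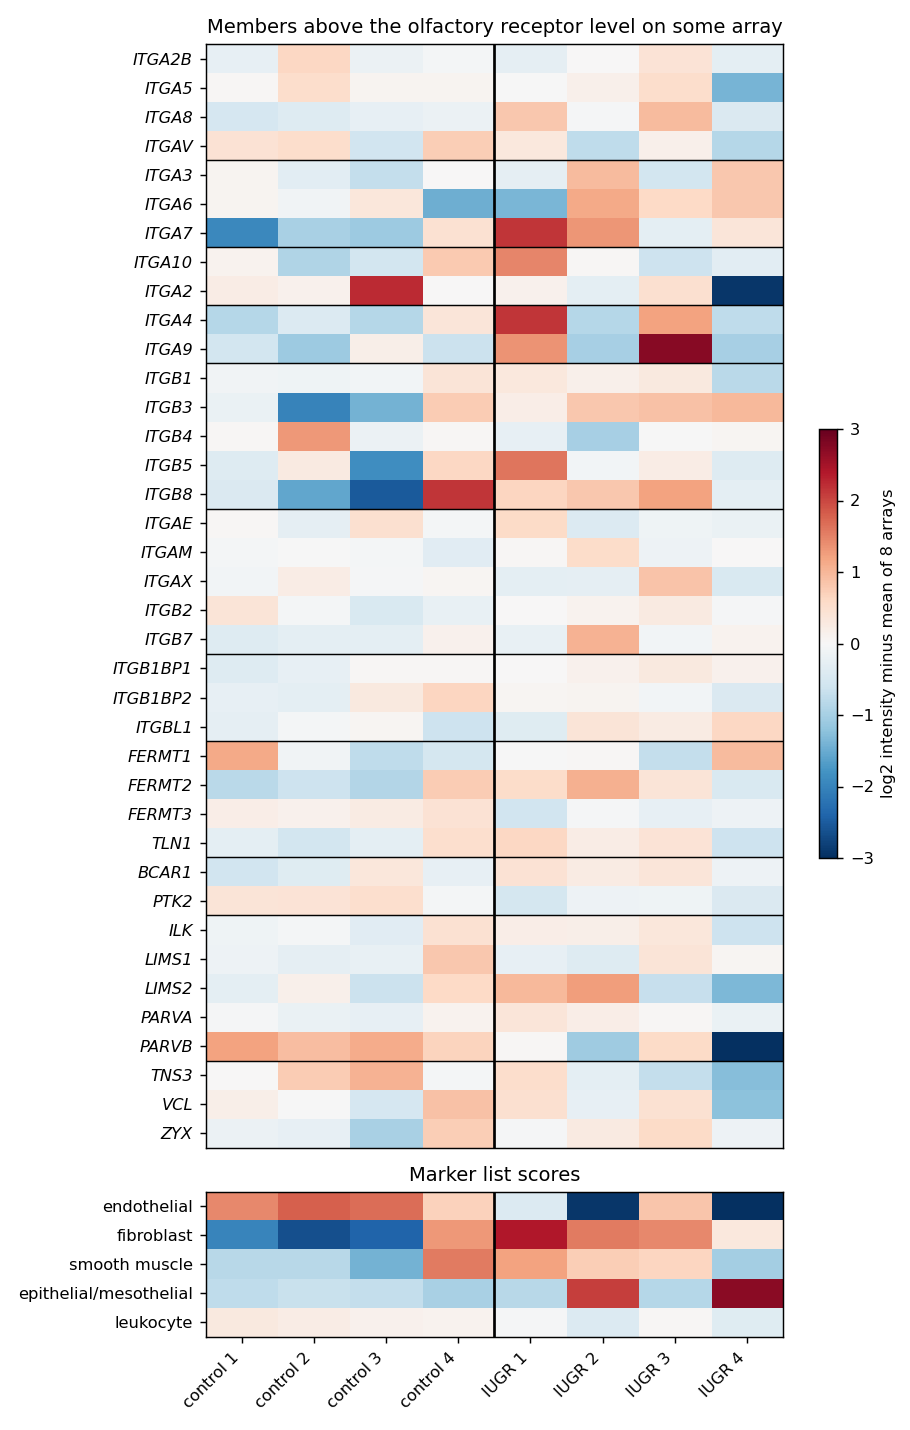
Colour shows each gene's log2 intensity minus its mean over the 8 arrays for the 38 members above background on some array, grouped by role, with the scores of 5 marker lists on the same scale underneath. Control replicate 4 shares its direction with IUGR replicates 1 to 3 for genes such as FERMT2 and TLN1, and IUGR replicate 4 is the lowest array for ITGA5, ITGA2, PARVB and VCL.

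The other genes of integrin adhesion came from 4 lists. Together they had 106 measured genes, of which 0 passed over all rows in limma and 14 (13.2%) were higher and 15 (14.2%) lower at an unadjusted p under 0.05, against 7.8% and 7.48% of all rows. Their median difference was 0.02 and their median absolute difference 0.43, against 0.00 and 0.21 over all rows. The values of single genes follow by role.

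Membrane partners, the tetraspanins, syndecans and other surface proteins that sit beside integrins, had 14 measured genes. Of these 7 (50%) were higher and 1 (7.14%) lower at an unadjusted p under 0.05, against 7.8% and 7.48% of all rows, none passed after adjustment, and the median difference was 1.11. CD44, a hyaluronan receptor, was 3.31, 3.05, 3.13 and 5.87 in control and 8.03, 9.51, 8.08 and 8.42 in IUGR, with an adjusted p of 0.101 in limma. SDC4, syndecan-4, a fibronectin co-receptor in focal adhesions, was 4.60, 3.95, 4.85 and 7.44 in control and 7.96, 9.26, 7.63 and 10.34 in IUGR. For both the groups were separate, with control replicate 4 the nearest control. SLC3A2, the CD98 heavy chain that binds beta tails, differed by 1.37 ± 0.33 (SE), and TSPAN12, a tetraspanin of retinal vessels, by -2.53 ± 0.52 (SE), both without overlap. CD44 lay below background in control replicates 1 to 3, so its difference of 4.67 ± 0.71 (SE) rests on arrays at background on the control side.

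Of 33 measured ligands 3 (9.09%) were higher and 8 (24.2%) lower at an unadjusted p under 0.05, against 7.8% and 7.48% of all rows, and none passed after adjustment. LAMC1, the gamma1 chain of most laminins, was 10.65, 10.38, 10.30 and 10.19 in control and 9.19, 9.80, 9.59 and 8.45 in IUGR, a difference of -1.12 ± 0.29 (SE). NID2, nidogen-2 of basement membranes, was 9.39 to 10.70 in control and 7.67, 5.29, 8.40 and 4.22 in IUGR, a difference of -3.87 ± 0.97 (SE). Both were lower in all 4 IUGR arrays, and IUGR replicates 2 and 4 were the lowest for NID2. TGFBI, a collagen-associated integrin ligand, was 3.51, 3.46, 3.13 and 4.96 in control and 6.50, 10.24, 9.18 and 7.62 in IUGR, and JAM3, a junction protein that binds a leukocyte integrin, differed by 1.71 ± 0.45 (SE). The adjusted p of these 4 genes in limma was 0.104 to 0.166. ICAM1, the endothelial ligand of leukocyte integrins, overlapped between groups, with controls at 5.73 to 8.15 and IUGR arrays at 6.43 to 8.65. VCAM1 matched no row. The measured ligands summed to 19185 to 30148 intensity units on every array but IUGR replicate 4, where the sum was 7939.

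Among 36 adaptors and signalling genes 2 (5.56%) were higher and 5 (13.9%) lower at an unadjusted p under 0.05, against 7.8% and 7.48% of all rows. Together they were 19.4%, against 15.3% of all rows and 17.5% of rows above background on some array, a similar share. The lower share alone was above that of all rows and rests on 5 genes. ARHGEF7, beta-PIX, an exchange factor for RAC1 and CDC42 at adhesions, was 6.84, 7.04, 7.31 and 6.90 in control and 6.06, 6.45, 6.41 and 6.01 in IUGR, a difference of -0.79 ± 0.15 (SE) with an adjusted p of 0.104 in limma. SRC, the kinase that partners focal adhesion kinase, was 5.29, 5.23, 5.07 and 4.97 in control and 5.49, 6.43, 6.12 and 5.96 in IUGR, a difference of 0.86 ± 0.20 (SE) with an adjusted p of 0.138 in limma. The groups were separate for both. SRC and PTK2 thus differed in opposite directions between groups. Within each group the array lowest for PTK2, control replicate 4 and IUGR replicate 1, was also the lowest for SRC. A relation between these 2 genes was not tested. RAC1, the GTPase of lamellipodia, differed by -0.32 ± 0.12 (SE). ELMO1, a RAC activator with DOCK1, was 6.59 to 9.11 in control and 5.37, 2.69, 6.23 and 3.09 in IUGR, at background in the arrays with the fewest endothelial markers. Groups were separate for these genes too.

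Of 23 measured actin linkers 2 (8.70%) were higher and 1 (4.35%) lower at an unadjusted p under 0.05, against 7.8% and 7.48% of all rows. Together they were 13.0%, against 15.3% of all rows and 17.5% of rows above background on some array. ARPC2, a subunit of the ARP2/3 actin nucleator, was 9.61 to 9.88 in control and 9.91 to 10.10 in IUGR, a small and regular difference of 0.26 ± 0.07 (SE). FHL2, a LIM protein, differed by 1.49 ± 0.46 (SE) with control replicate 4 overlapping. KANK4, a talin-binding protein, was below background in all IUGR arrays and in control replicate 1. LPXN, leupaxin, a paxillin relative, differed by -0.44 ± 0.20 (SE) with overlapping groups. The adjusted p of these 4 genes in limma was 0.172 to 0.349.

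The calls depended on which cultures entered. Without control replicate 4, limma called 340 of 15380 rows (2.21%) and PTK2 alone of the 41 members, with 7 members (17.1%) at an unadjusted p under 0.05 against 17.7% of rows. Groups were then separate for 6 members in the higher direction, ITGA7, ITGB3, ITGB8, ITGB7, FERMT2 and ZYX, against 0 with all arrays. In either direction 9 of 41 members were separate, against 17.1% of rows. Without IUGR replicates 2 and 4, 6 members (14.6%) had an unadjusted p under 0.05 in limma against 12% of rows, and 7 (17.1%) had separate groups against 19% of rows. Leaving out control replicate 4 and IUGR replicates 2 and 4 left 3 controls and 2 IUGR arrays, which gave 12 members (29.3%) at an unadjusted p under 0.05 against 18.5% of rows, and called ITGA8 and FERMT2 beside 1.98% of rows (adjusted p of 0.0399 and 0.0434 in limma). There ITGB1 differed by 0.41 ± 0.05 (SE) with an adjusted p of 0.0535 in limma, against -0.03 with all arrays. For ITGA8, FERMT2 and ITGB1 the arrays left out include the highest control, replicate 4, and the lowest IUGR array, replicate 4. The larger differences of these genes in that setting are therefore no separate support. In the same setting 19 members (46.3%) had separate groups against 33.2% of rows. By the median deviation of members, control replicate 4 lay with IUGR replicates 1 to 3 and IUGR replicate 4 with the other controls. Leaving out these arrays favours larger member shares, so the shares in that setting are no separate support either. With passage as a covariate 1 member, ITGB7, had an unadjusted p under 0.05 in limma (2.44%, against 8.48% of rows), and PTK2 differed by -0.50 ± 0.51 (SE). That fit cannot tell passage from group.

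**Figure D4:**
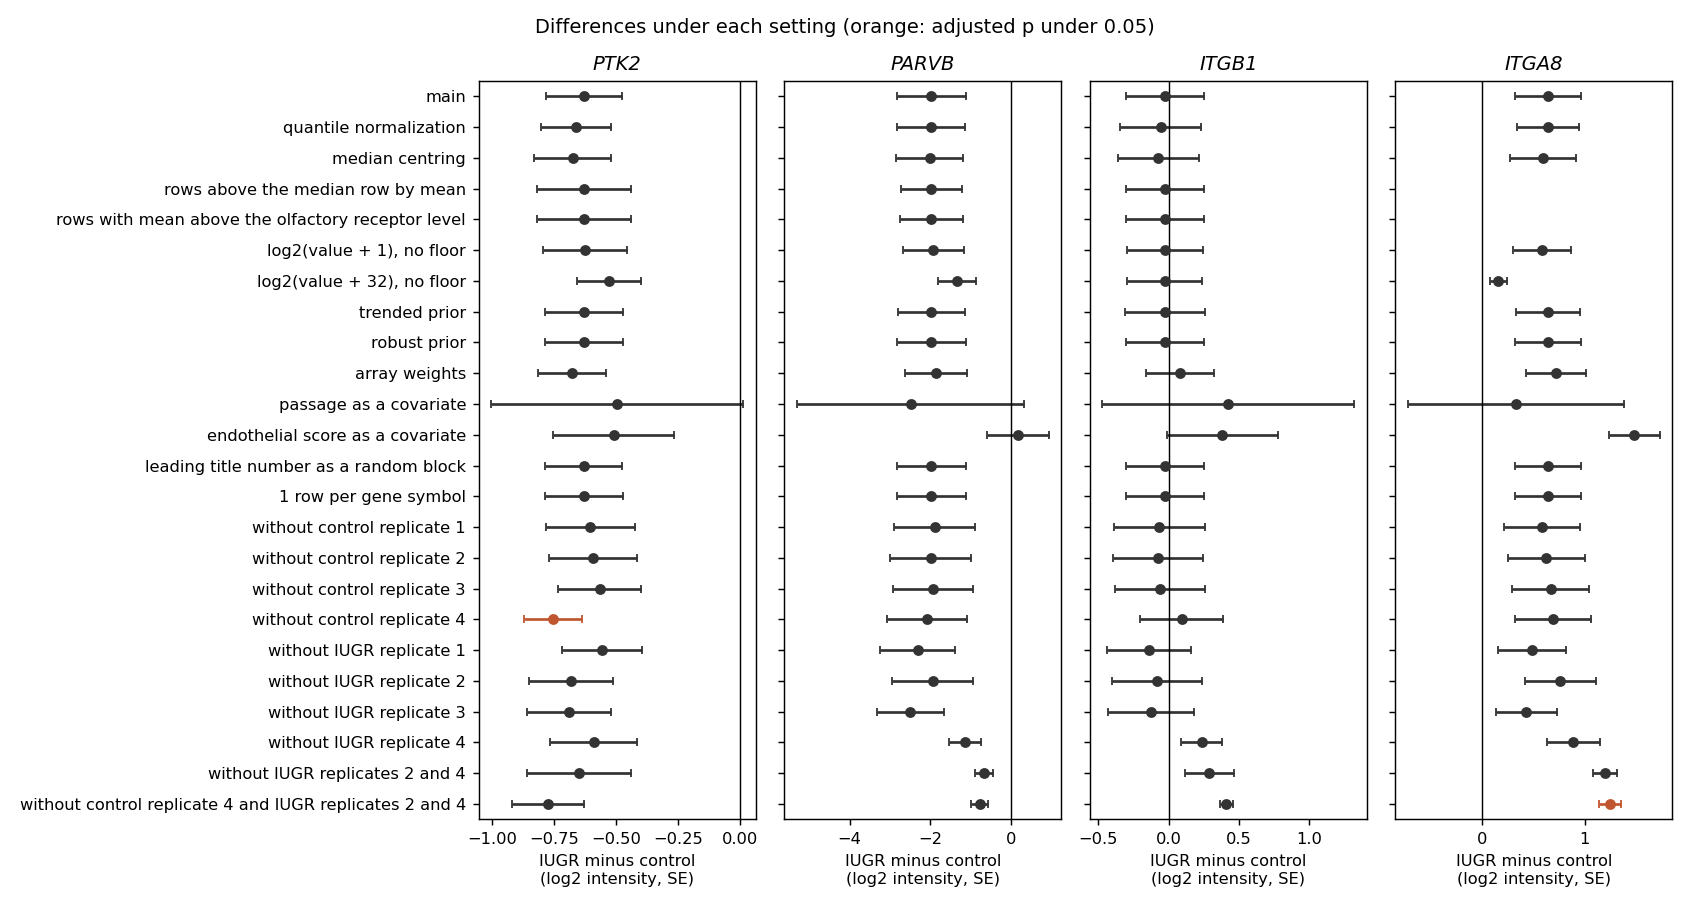
Points are the differences IUGR minus control in log2 intensity with SE for PTK2, PARVB, ITGB1 and ITGA8 under the main setting and each alternative, on a separate horizontal scale per gene, and orange marks an adjusted p under 0.05 in limma. PTK2 stays below 0 in every setting, from -0.77 to -0.50. PARVB moves to 0.17 with the endothelial score as a covariate, and ITGB1 crosses 0 in several.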

How the data were processed

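The deposited table held linear intensity values, 1 row per gene name, for 8 arrays. Per the labels, Trizol was used for total RNA and an Affymetrix protocol for the biotin-labelled cRNA. The authors' background correction, probe summary and normalization are not given in the sources used here. Intensities (2.77 to 8705) were taken as deposited, values below the 10th percentile (5.89 units) were raised to it, and log2 was taken. In R 4.3.3, limma 3.58.1 was fitted to all 15380 rows without covariates, using lmFit with eBayes. P-values are two-sided, with Benjamini-Hochberg adjustment over all rows and a threshold of 0.05. The fit was also run on simulated data with independent normal noise around each row's mean. Those data lack the cell type differences between these cultures, so the run does not cover them. All 41 member names are symbols in NCBI RefSeq's ARS-UI_Ramb_v3.0 gene table, used for names only. Of 237 list genes 191 matched a row. The lists were 6 of cell type markers and 4 of adhesion genes. Replicates are separate cultures numbered in accession order, so the numbers pair nothing.

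The members, lists and tests were chosen with earlier results of these data known. Named genes were the members at an unadjusted p under 0.05 or with separate groups, a preset set of core chains and linkers, and up to 4 genes of the smallest p per adhesion list. The other members are given by ranges or were chosen after their values were seen. The number of arrays limits the precision. Alternatives covered normalization, filters, pseudocounts, priors, weights, covariates, a block and left-out arrays. The passage covariate cannot tell passage from group, because passage did not overlap between groups. The endothelial score overlapped between groups only in IUGR replicate 3, so that covariate cannot cleanly tell the score from group.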

Additional observations from a re-analysis of the deposited data

Results flagged for a closer look

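In each group of 4, an array was picked out when its gap to the nearest other array divided by the group's range exceeded Dixon's 95% critical value. Of 76 groups (38 members above background on some array) 9 were picked out, or 11.8%, where chance gives about 1 in 20. Over all rows above background on some array the same rule picked out 1695 of 25878 groups, or 6.55%. Control replicate 4 was high for 3 genes, FERMT2 at 10.42, ITGB1 at 11.93 and LIMS1 at 9.73, with the nearest control at 9.05, 11.46 and 8.76. It was low for ITGAM, at 2.60, where all 4 controls lay below background. Control replicate 2 was high for ITGA5, at 9.78, and ITGB4, at 6.46. Control replicate 3 was high for ITGA2, at 9.04. Among IUGR arrays replicate 4 was low for ITGB1, at 10.74, and replicate 3 was high for ITGAX, at 3.87, the only array of ITGAX above background. ITGB1 was thus picked out in both groups, in opposite directions.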

How the results depend on the processing

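No paired analysis was possible because the labels give no replicate numbers. Of 19 named members 10 kept their direction under all alternatives that gave a value (23 at most), among them PTK2, FERMT3, ITGA7 and ITGB3. Both filters on dim rows removed ITGA8, and the median filter also removed FERMT3, ITGA7 and ITGB4, so these have fewer values. Limma called 0 rows in the main analysis, 55 among rows above the median, 122 among rows above the olfactory receptor level, 61 with log2(value + 1), 1 with a trended prior, 20 with array weights, 10 with 1 row per gene symbol and 304 with 3 arrays left out (control replicate 4, IUGR replicates 2 and 4). The count was 0 to 340 when each array was left out in turn, with the 340 without control replicate 4. Members at an unadjusted p under 0.05 and higher were 2 in the main analysis, 1 after quantile normalization, among rows above the median and with passage as a covariate, 5 with array weights, and 8 without those 3 arrays. Lower ones were 2, and 0 with passage as a covariate and 4 without those 3 arrays. Leaving out each array gave 0 to 5 higher and 2 to 4 lower. Members with separate groups and higher were 0 in the main analysis, 4 without IUGR replicates 2 and 4, 15 without those 3 arrays, and 0 to 6 when each array was left out. In the settings with 2 and 3 arrays left out, 19% and 33.2% of all rows were separate in either direction. Those 3 arrays include control replicate 4 and IUGR replicate 4, which lay on the other group's side for the members. The member counts without them are therefore no separate support. Separate and lower members were 3 in the main analysis, 2 among rows above the median and 3 to 4 when each array was left out. Leaving out 1 array moved the difference by over 1.5 times for 13 of the 19 named members, and not for PTK2, FERMT3, ITGA7, ITGA8, ITGB3 and ITGB1BP1.

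Differences that turned direction were small or came with a covariate or left-out arrays, and the cause was not tested. None of them passed. ILK turned to -0.0049 with median centring and lay between -0.068 and 0.26 when each array was left out. ITGB1 turned to 0.082 with array weights, 0.43 with passage, 0.38 with the endothelial score, 0.29 without IUGR replicates 2 and 4 and 0.41 without those 3 arrays, and lay between -0.14 and 0.24 over single arrays left out. ITGA5 turned to 0.44 with passage, 0.46 with the endothelial score, 0.076 without IUGR replicates 2 and 4 and 0.042 without those 3, and lay between -0.60 and 0.040 over single arrays left out. VCL turned to 0.48 with the endothelial score, 0.33 without IUGR replicates 2 and 4 and 0.57 without those 3, and lay between -0.48 and 0.092 over single arrays. With the endothelial score ITGA2 turned to 0.41, ITGA3 to -0.61, ITGAV to 0.10 and PARVB to 0.17, and ITGA2 was 0.0073 with passage. Without IUGR replicates 2 and 4 ITGA3 was -0.17 and ITGA6 -0.10, and without those 3 arrays ITGA3 was -0.086, ITGA6 -0.50 and ITGAV 0.11.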
